A study of Mus musculus with 6 samples.

Results

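The proteasome genes of parvalbumin-positive sensory neurons were compared between mice that lacked Dicer in these cells and wild-type mice. The genes were chosen by name: every row of the deposited table whose name starts with Psm, then a letter from a to g, then a number. This pattern found 49 genes among 31469 rows, each with 1 row. They comprised 14 genes of the standard core particle, 17 of the regulatory particle, 3 immunoproteasome subunits, 7 assembly chaperones and 5 genes of other caps and their inhibitor. Also found were Psma8 and Psmb11, which replace core subunits in testis and thymus, and Psmc3ip, a meiotic recombination factor that shares only the name prefix.

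The proteasome is the protease complex that degrades proteins tagged with ubiquitin. Its barrel-shaped core is a stack of alpha and beta rings, with the proteolytic sites inside the beta rings, and its regulatory particle binds, unfolds and feeds in the substrate with a ring of ATPases. In cells exposed to interferon, Psmb8, Psmb9 and Psmb10 replace the catalytic subunits Psmb5, Psmb6 and Psmb7. Neurons depend on this complex for protein turnover along axons and at synapses, and the transcription factor Nfe2l1 raises the proteasome genes together when the complex is inhibited.

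The knockout group (KO, 3 libraries) was labelled as a Dicer knockout driven by parvalbumin, with a parvalbumin-Cre allele per the series design. The wild-type group (WT, 3 libraries) carried no stated allele. All 6 libraries held RNA of parvalbumin-positive neurons from dorsal root ganglia (lumbar 4) of C57BL/6 mice at postnatal day 21. The labels name no method of isolating the cells. Parvalbumin both drove the deletion and marked the collected cells. Nothing in the labels ties a library to its own animal, and the p-values therefore measure the spread between libraries. This spread may be technical between replicates 1 and 2, while replicate 3 of each group differed from them in sex-linked transcripts (values below).

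Levels are given in TPM (a length-scaled share of each library's transcripts). Differences are log2(TPM + 1) in KO minus WT from limma, fitted to the 13787 rows that averaged 1 TPM or more and adjusted over all of them by Benjamini-Hochberg, with a threshold of 0.05. Sequencing depth is not kept by TPM and is unknown here. Dicer1, as a whole-gene value that does not isolate a deleted exon, was at 24.0, 20.8 and 21.8 TPM in KO libraries, against 36.7, 26.0 and 48.7 TPM in WT libraries. Replicate 3 of each group differed from the other replicates in sex-linked transcripts, with the Y-linked Ddx3y at 32.7 TPM in KO and 33.3 TPM in WT and at 0.02 TPM or less in the other 4 libraries. Of the sensory neuron markers, 9 of 9 were above 0 in every library, 1 rose (Rbfox3) and 3 fell (Etv1, Runx3 and Pvalb). The groups overlapped for none of the 9, with 3 higher in KO (Rbfox3, Avil and Pou4f1) and 6 lower. The sum of the 9 was 1156 to 1388 TPM in KO libraries and 1526 to 1580 TPM in WT libraries. Etv1 was the largest part of this sum in every library, at 383, 287 and 260 TPM in KO libraries, against 626, 549 and 530 TPM in WT libraries. Pvalb itself was at 4.02, 3.69 and 13.98 TPM in KO libraries, against 25.1, 19.7 and 23.1 TPM in WT libraries. The 8 satellite glia markers, of which 2 fell (Fabp7 and Gja1), summed to 424 to 929 TPM in KO libraries and 804 to 1763 TPM in WT libraries. Of the 8, 7 had differences below 0. Glul went the other way, at 212, 222 and 245 TPM in KO libraries, against 145.5, 102 and 199 TPM in WT libraries. Its groups did not overlap (log2 difference 0.65, limma adjusted p = 0.105). The 6 Schwann cell markers summed to 1039 to 1391 TPM in KO libraries and 448 to 527 TPM in WT libraries, nearly all of it Pmp22, which rose. Mbp, another Schwann cell marker, was at 6.86, 7.85 and 5.6 TPM in KO libraries, against 17.9, 10.8 and 13.7 TPM in WT libraries, lower in every KO library (log2 difference -0.94, adjusted p = 0.0568), and Mag was at 0 in all but KO replicate 1 (0.18 TPM). The part of Schwann cell markers in the results below was not tested. In bulk samples, fewer cells of a type and less RNA per cell cannot be told apart.

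Of the proteasome promoters, the sequence of Psmb3 is shown first, because Psmb3 was the only one of the genes that passed the test. It runs from 250 bases before to 50 bases after the RefSeq start, at chr11:97703184-97703483 on the plus strand of GRCm38.p6. Capitals mark CCAAT, the box bound by the factor NF-Y, which was found at 2 places in this window.
Psmb3: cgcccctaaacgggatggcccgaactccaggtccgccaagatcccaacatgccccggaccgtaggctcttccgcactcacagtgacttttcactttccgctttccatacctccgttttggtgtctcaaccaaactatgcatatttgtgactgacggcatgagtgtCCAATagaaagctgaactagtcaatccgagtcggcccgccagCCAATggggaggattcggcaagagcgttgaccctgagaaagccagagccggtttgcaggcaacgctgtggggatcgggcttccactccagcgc

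Nfe2l1 acts through antioxidant response elements, whose core is TGACNNNGC. The stretches around this core are shown for the genes whose RefSeq window holds it, since they are the members with a letter match to the factor known for this gene family. Capitals mark the core, and each sequence is written in the direction in which the core reads TGACNNNGC. In GRCm38.p6 the Psmb5 stretch is chr14:54618024-54618052 (minus strand), the Psmb6 stretch chr11:70525338-70525366 (plus), the Psmc6 stretch chr14:45329587-45329615 (minus), the Psmd12 stretch chr11:107479278-107479299 (minus), the Psmd9 stretch chr5:123228149-123228177 (plus) and the Psme4 stretch chr11:30771758-30771786 (minus).
Psmb5: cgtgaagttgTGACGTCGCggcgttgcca
Psmb6: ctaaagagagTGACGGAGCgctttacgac
Psmc6: gagcaatgccTGACTTAGCtactggctgg
Psmd12: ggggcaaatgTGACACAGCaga
Psmd9: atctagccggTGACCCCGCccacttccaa
Psme4: gctcttctggTGACGCTGCagccgcagcg
Windows were given for 41 of the 49 genes. TGACNNNGC was found on either strand in 6 of these 41 (14.6%), against 14% of all 27025 genes with a window. CCAAT was found in 15 of 41 (36.6%), against 41.1% of all genes, and no proteasome window held both motifs. The log2 differences of the 6 genes with TGACNNNGC lay on both sides of 0. They were 0.24 for Psmb6 and 0.26 for Psme4, and -0.06 for Psmb5, -0.02 for Psmc6, -0.20 for Psmd12 and -0.29 for Psmd9, and none passed the test.

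The standard subunits were abundant in every library, and core genes were on average higher than regulatory particle genes. Single genes crossed: the core genes Psma1 and Psma4 averaged 210 and 205 TPM over all libraries, against 322 for Psmc5 and 323 for Psmd12. Summed over 14 genes, the core held 4995, 5351 and 5648 TPM in KO libraries, against 5276, 5648 and 5029 TPM in WT libraries. The regulatory particle, summed over 17 genes, held 2703, 2602 and 2957 TPM in KO libraries, against 2838, 3574 and 3333 TPM in WT libraries. The core sums of the groups overlapped, and so did those of the regulatory particle, where KO replicate 3 lay above WT replicate 1. Single subunits of the complex differed widely in level: the highest exceeded the lowest by 15.8 to 20.1 times in KO libraries and by 18.4 to 20.2 times in WT libraries. Psmd3, a lid subunit of the regulatory particle, was the lowest of the 31 in all 6 libraries, at 31.5 ± 2.35 TPM in KO and 34.8 ± 3.12 TPM in WT (SD, n = 3 each). The highest was Psmb7, the subunit with trypsin-like activity, in KO replicate 3 and all WT libraries, and the alpha ring gene Psma2 in KO replicates 1 and 2. The order of the 31 levels was close between libraries, with Spearman correlations of 0.954 to 0.992 between each library and the mean of all 6, of which it is a part.

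**Figure D1:**
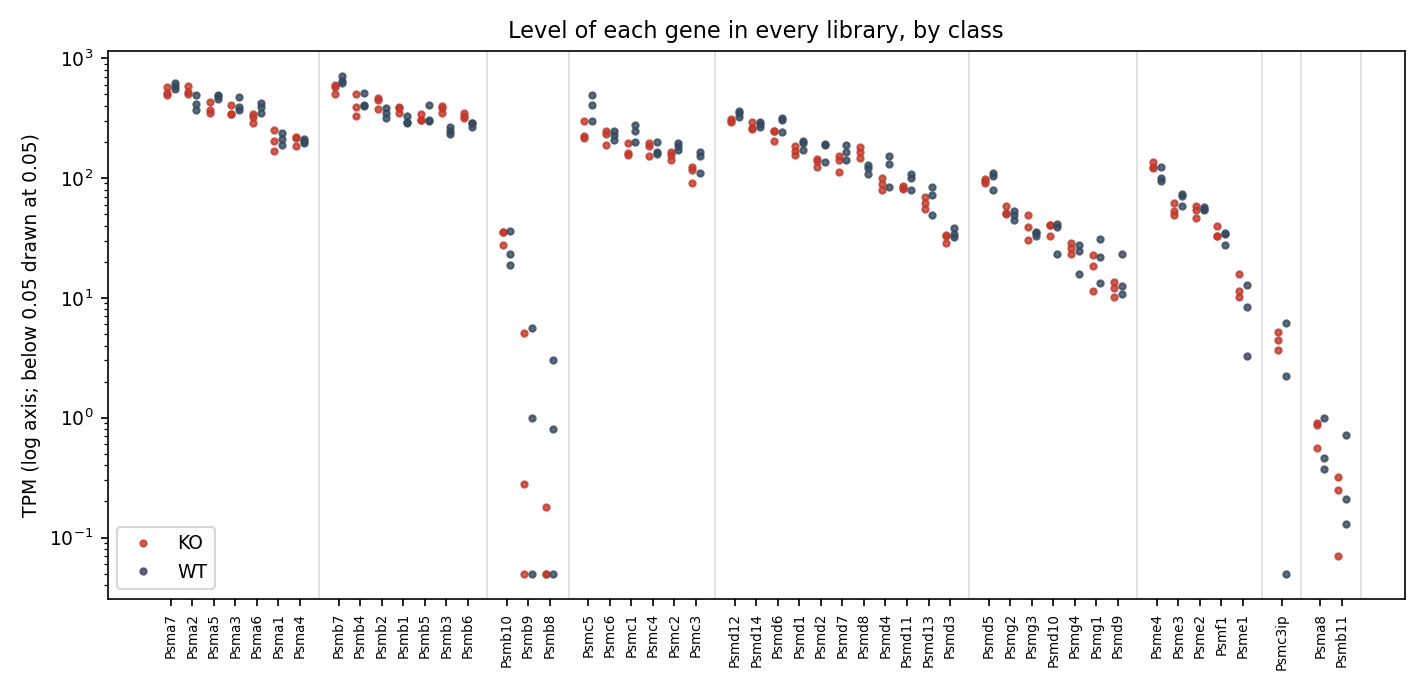
TPM of each of the 49 genes in every library (log axis, 1 point per library, KO in red and WT in dark blue), in blocks by class. Core genes sit above most others, Psmb8 and Psmb9 are at or near 0 in several libraries, and values below 0.05 are drawn at 0.05.

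Of the 49 genes, 46 reached a mean of 1 TPM and were tested. In KO neurons, 1 of the 46 rose, 0 fell and 45 did not pass limma, which is 2.17% called against 5.03% of all tested rows (1.86% higher and 3.17% lower). With p below 0.05 before adjustment, 6 were higher and 6 were lower, 26.1% of the members against 23.8% of all rows (9.77% higher and 14.1% lower). The groups did not overlap for 11 genes, 5 higher and 6 lower, which is 23.9% against 28.9% of all tested rows (11.8% higher and 17.1% lower). Over all 46 genes together, the shares were therefore near or below those of the whole table. The median log2 difference was -0.08 over the 46 genes and -0.05 over all tested rows. Differences were below 0 for 29 of the 46 genes and for 7584 of the 13787 tested rows. All 11 genes whose groups did not overlap were among the 31 standard subunits (35.5%, against 28.9% of all tested rows). They were 7 of the 14 core genes (50%) and 4 of the 17 regulatory particle genes (23.5%). The 12 genes with p below 0.05 before adjustment were also all standard subunits (38.7%, against 23.8% of all tested rows).

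**Figure D2:**
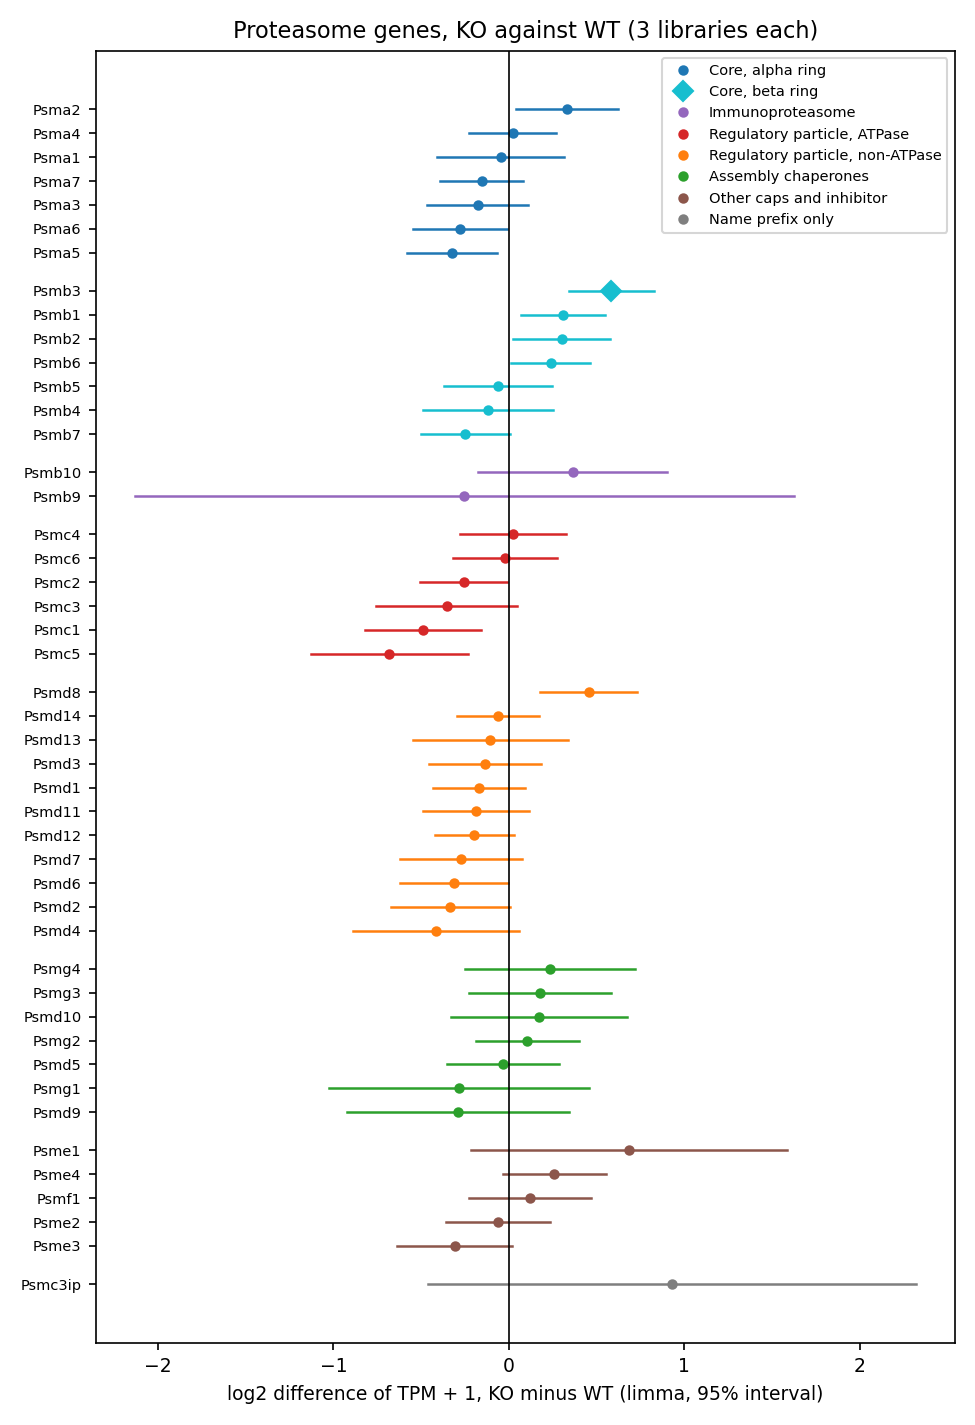
Log2 difference of TPM + 1, KO minus WT, for the 46 tested genes by class, with the 95% interval from limma. The diamond marks Psmb3 (0.58), the only gene that passed the test, and most regulatory particle genes lie left of 0.

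The beta ring held the only call. Psmb3, a non-catalytic beta subunit (GRCm38 chromosome 11, 97703399 to 97713500), had 345, 380 and 396 TPM in KO libraries, against 267, 232 and 247 TPM in WT libraries. Every KO library lay above every WT library. The difference was 0.58 (SE 0.11, limma adjusted p = 0.0202), or 1.5-fold with a 95% interval of 1.27 to 1.77. The call ended when any single library other than WT replicate 1 was left out (adjusted p from 0.0531 to 0.0743, log2 differences from 0.54 to 0.64), and also with a covariate for satellite glia markers (0.63, adjusted p = 0.0852). No other gene shares exonic bases with Psmb3 in the basic GENCODE annotation.

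Of the other beta ring genes, 3 more had differences above 0 and 3 below 0, none of which passed limma. Psmb1, another non-catalytic subunit, was at 345, 394 and 386 TPM in KO libraries, against 293, 327 and 287 TPM in WT libraries, and the groups did not overlap (log2 difference 0.31, adjusted p = 0.123). Psmb6, which carries the caspase-like activity, was at 314, 329 and 351 TPM in KO libraries, against 268, 286 and 287 TPM in WT libraries, again without overlap (0.24, adjusted p = 0.186). Psmb2, which is also non-catalytic, was at 445, 465 and 378 TPM in KO libraries, against 383, 316 and 346 TPM in WT libraries (0.30, adjusted p = 0.176). Its groups overlapped, because KO replicate 3 lay below WT replicate 1.

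The catalytic genes did not move together. Psmb7 was at 500, 574 and 601 TPM in KO libraries, against 649, 713 and 625 TPM in WT libraries, so that every KO value was lower (log2 difference -0.25, adjusted p = 0.218). Psmb5, with the chymotrypsin-like activity, was at 305, 307 and 343 TPM in KO libraries, against 300, 404 and 302 TPM in WT libraries. The Psmb5 groups overlapped, and the difference of -0.06 had a 95% interval of -0.37 to 0.25. Psmb4 had a difference of -0.12. GENCODE lists pseudogenes named after Psmb5, Psmb6 and Psmb7 that are not among the rows, and Psmb7 shares 405 exonic bases with Nek6 on the opposite strand, so values of these genes carry that uncertainty.

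**Figure D3:**
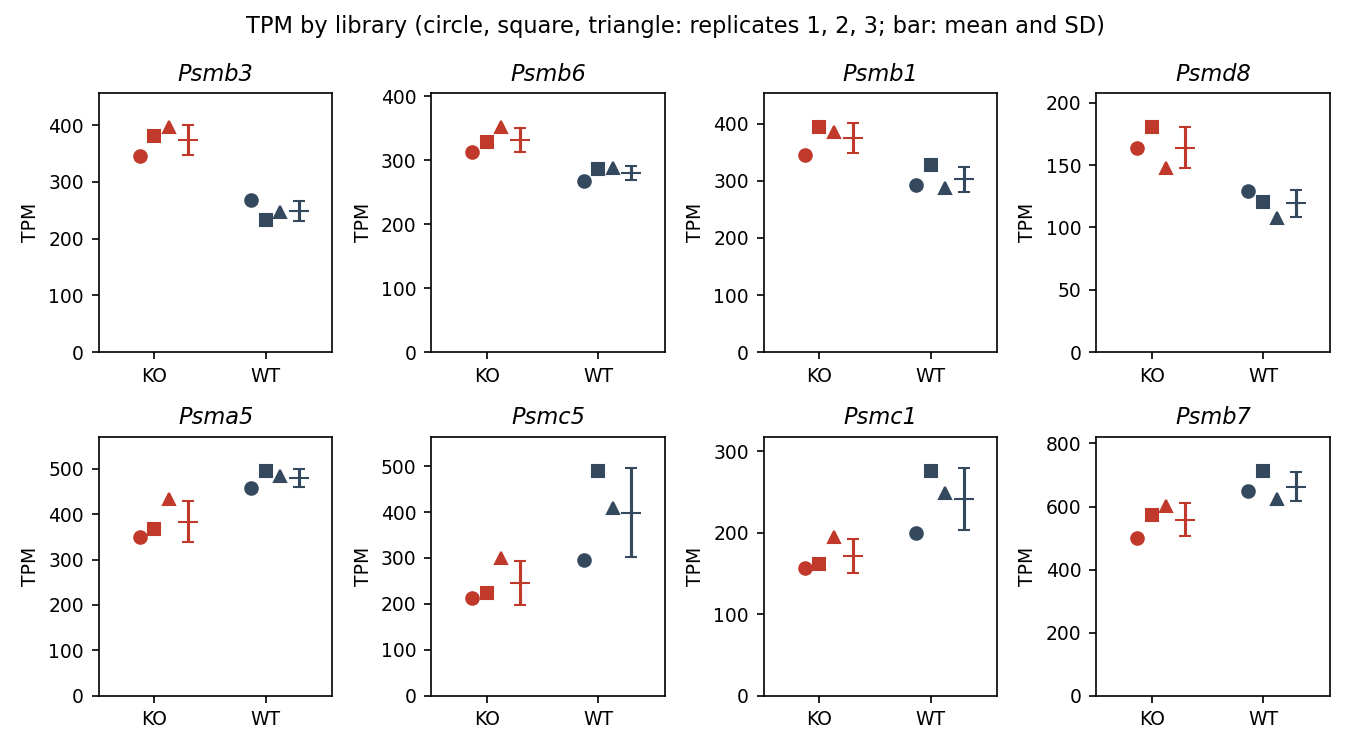
TPM in each library for 8 subunit genes, with KO in red left of WT in dark blue and the mean and SD beside the points. Every KO point of Psmb3 (345 to 396 TPM) lies above every WT point (232 to 267 TPM), and KO replicate 3 of Psmc5 lies beside WT replicate 1.

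In the alpha ring, which gates entry to the core, 5 of 7 genes had differences below 0 and none passed limma. Psma5 was at 349, 367 and 434 TPM in KO libraries, against 457, 496 and 484 TPM in WT libraries, and the groups did not overlap (log2 difference -0.33, adjusted p = 0.124). Psma6 was at 286, 325 and 344 TPM in KO libraries, against 387, 422 and 350.2 TPM in WT libraries, likewise lower in every KO library (-0.28, adjusted p = 0.192). Psma2 went the other way, at 523, 580 and 501 TPM in KO libraries, against 496, 416 and 370 TPM in WT libraries (0.33, adjusted p = 0.162). The other alpha genes, Psma1, Psma3, Psma4 and Psma7, had differences between -0.18 and 0.02. Psma5 shares 60 exonic bases with an annotated antisense transcript, and the labels do not state whether counting used strand.

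Each ring's mean level can be set against the other within a library. The mean log2(TPM + 1) of the beta genes minus that of the alpha genes was 0.16, 0.26 and 0.19 in KO libraries, against -0.06, -0.04 and 0.01 in WT libraries. These values did not overlap, and they are given as a description of genes that were chosen with earlier results known. With the trend in transcript length (described below) removed per library, the median log2 difference of the beta genes was 0.11 in place of 0.24. That of the alpha genes was -0.10 in place of -0.15.

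In the regulatory particle, 15 of 17 genes had differences below 0 as deposited, against 7584 of all 13787 tested rows. The count was 13 of 17 with median-of-ratios rescaling, yet none of the genes passed limma. Before adjustment, p was below 0.05 for 1 higher and 4 lower, 29.4% of the 17 genes against 23.8% of all tested rows. The median log2 difference was -0.20 over the 17 genes, against -0.06 over the 14 core genes and -0.05 over all tested rows. With median-of-ratios rescaling the medians were -0.12 for the regulatory particle and 0.02 for the core, whose sign thus depended on the scaling, and 0.02 over all rows. The core median was also above 0 (0.03) without WT replicate 2. All 17 genes passed the filter.

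The ATPases had the lowest median difference of the 4 standard classes (-0.31), with 5 of 6 genes below 0. Psmc5 was at 214, 223 and 301 TPM in KO libraries, against 296, 490 and 410 TPM in WT libraries. The groups touched, because KO replicate 3 lay above WT replicate 1, and the difference of -0.68 (SE 0.20, adjusted p = 0.0803) did not pass. Psmc1 was at 156, 162 and 195 TPM in KO libraries, against 200, 276 and 248 TPM in WT libraries, with no overlap (-0.49, adjusted p = 0.0866). Psmc3 was at 124, 91.3 and 116 TPM in KO libraries, against 111, 151 and 166 TPM in WT libraries, with overlap through WT replicate 1 (-0.36, adjusted p = 0.261). The Psmc3 difference was -0.22 without KO replicate 2 and -0.24 without WT replicate 3. Psmc2 was lower in every KO library (-0.26, adjusted p = 0.198), while Psmc6 and Psmc4 had differences of -0.02 and 0.03.

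WT replicate 1 held the lowest WT value for Psmc5, Psmc1, Psmc2, Psmc3, Psmc4 and Psmc6. Without this library, Psmc5 (-0.88, adjusted p = 0.0312), Psmc1 (-0.62, adjusted p = 0.0410) and Psmd4 (-0.67, adjusted p = 0.0406) were called lower, beside Psmb3 higher. Without any other single library the count of calls was 0 by limma, with 4 to 11 genes at an unadjusted p below 0.05. A number of calls between 0 and 4 thus depended on which library was left out.

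Among the non-ATPase subunits of the regulatory particle, 10 of 11 had differences below 0. Psmd8, a lid subunit, was the exception, at 164, 180 and 148 TPM in KO libraries, against 129, 120 and 108 TPM in WT libraries. Every KO value was higher, and the difference of 0.46 (SE 0.12, adjusted p = 0.0668) did not pass. Psmd4, a ubiquitin receptor, was at 79.7, 89.0 and 100.2 TPM in KO libraries, against 84.1, 153 and 132 TPM in WT libraries. The Psmd4 groups overlapped through WT replicate 1 (-0.41, adjusted p = 0.267), and the difference was -0.24 without WT replicate 2. Psmd2, a scaffold subunit of the base, was at 124, 138 and 144 TPM in KO libraries, against 136, 191 and 190 TPM in WT libraries (-0.33, adjusted p = 0.216). Psmd12 was the other gene of this class without overlap, at 301 ± 8.80 TPM in KO and 345 ± 20.3 TPM in WT (SD, n = 3 each; -0.20, adjusted p = 0.266). Psmd14, the deubiquitinase that strips ubiquitin from substrates, differed by -0.06, with a 95% interval of -0.30 to 0.17. The others, Psmd1, Psmd3, Psmd6, Psmd7, Psmd11 and Psmd13, had differences between -0.31 and -0.11.

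Core and regulatory particle were then set against each other within each library. The mean log2(TPM + 1) of the 14 core genes minus that of the 17 regulatory genes was 1.29, 1.44 and 1.34 in KO libraries, against 1.32, 1.06 and 0.98 in WT libraries. The groups overlapped, because WT replicate 1 lay within the KO range. The means were 1.36 ± 0.07 in KO and 1.12 ± 0.18 in WT (SD, n = 3 each), a difference of 0.23 against a pooled SD of 0.14. The mean log2 level of the regulatory particle was 7.16 ± 0.09 in KO and 7.36 ± 0.18 in WT, and that of the core was 8.51 ± 0.09 in KO and 8.49 ± 0.08 in WT. No p is given for these scores, since their genes were chosen with results known.

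**Figure D4:**
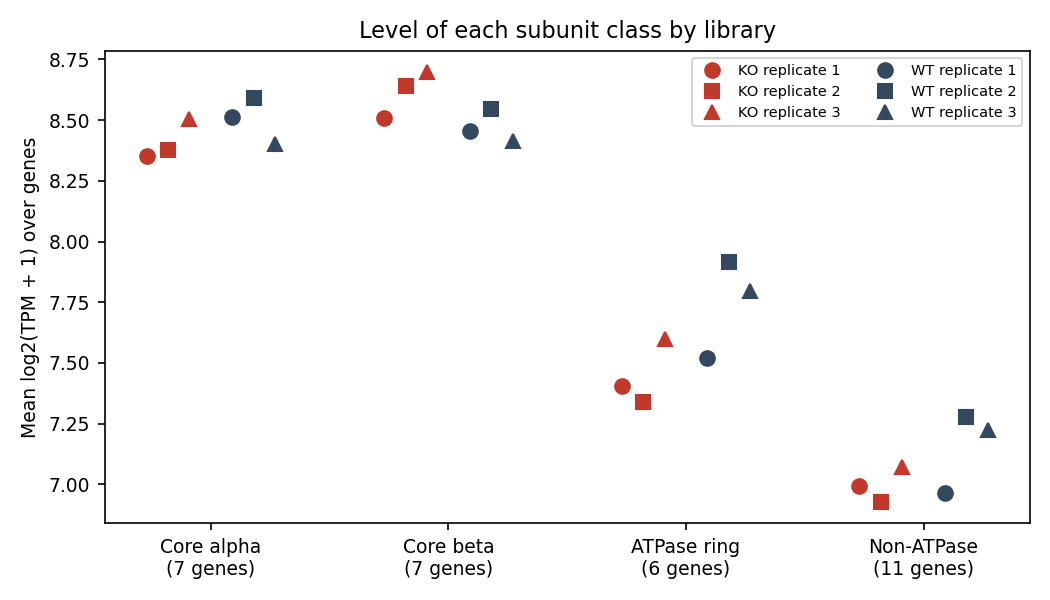
Mean log2(TPM + 1) over the genes of each standard subunit class, 1 point per library, with KO in red left of WT in dark blue. WT replicate 1 (circle) lies within the KO range for the ATPase genes (7.52) and the non-ATPase genes (6.97).

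The immunoproteasome genes were low, and none passed the test. Psmb8 was at 0.18, 0 and 0 TPM in KO libraries, against 0.8, 0 and 3 TPM in WT libraries, and its mean was too low to be tested. Psmb9 was at 0.28, 0 and 5.05 TPM in KO libraries, against 0.99, 0 and 5.59 TPM in WT libraries. In each group the highest Psmb9 value was in replicate 3, which also differed in sex-linked transcripts. Replicate 3 also held the highest sum of satellite glia markers in each group, at 929 TPM in KO and 1763 TPM in WT. The part of either in the Psmb9 level was not tested. The Psmb9 groups overlapped (log2 difference -0.25, 95% interval -2.13 to 1.62, limma adjusted p = 0.886). Its sign turned with the library left out, from -1.06 without KO replicate 3 to 0.49 without WT replicate 3. Over the 16 alternatives in which Psmb9 was tested, the difference ran from -1.06 to 1.38. With a sex term it was -0.25 (limma adjusted p = 0.758). Psmb10 was the most abundant of them, at 35.5, 35.3 and 27.4 TPM in KO libraries, against 36.4, 18.6 and 23.1 TPM in WT libraries, with groups that overlapped (0.36, adjusted p = 0.394), and the difference was 0.16 without WT replicate 2 and 0.62 without WT replicate 1.

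On the TPM scale, which is per length, the standard catalytic genes far exceeded their immunoproteasome counterparts in every library. Psmb10 made up 4.36% to 6.63% of the sum of Psmb10 and Psmb7 in KO libraries and 2.54% to 5.31% in WT libraries. Psmb9 made up at most 1.42% of its pair with Psmb6 in KO libraries and 1.91% in WT libraries, and Psmb8 at most 0.059% of its pair with Psmb5 in KO libraries and 0.984% in WT libraries. The 8 immune cell markers summed to 3.87 to 6.01 TPM in KO libraries and 6.02 to 10.6 TPM in WT libraries. Most of this was Lyz2, at 4.45, 2.54 and 4.74 TPM in KO libraries, against 7.04, 6.02 and 8.08 TPM in WT libraries, lower in every KO library (log2 difference -0.74, adjusted p = 0.15). Of the others, C1qa was at 0 in all 6, Ptprc was at 0.04 TPM in KO replicate 1 and at 0 elsewhere, and C1qb was at 0.42 to 0.64 TPM in KO libraries and at 0 in WT libraries. Psmb9 shares 212 exonic bases with Tap1 on the opposite strand.

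The assembly chaperones, which build the complex and leave it, showed no call among 7 genes, and the groups overlapped for all of them. Psmd9, a chaperone of the ATPase ring, was at 12.2, 10.1 and 13.5 TPM in KO libraries, against 10.8, 23.3 and 12.5 TPM in WT libraries (log2 difference -0.29, adjusted p = 0.567). Psmg1, a chaperone of the alpha ring, was at 18.4, 11.4 and 22.97 TPM in KO libraries, against 13.3, 30.8 and 21.8 TPM in WT libraries (-0.28, adjusted p = 0.639). Psmg4 was at 28.9, 23.3 and 26.3 TPM in KO libraries, against 27.4, 24.6 and 15.8 TPM in WT libraries (0.23, adjusted p = 0.548). In Psmd9 and Psmg1 the highest value was WT replicate 2, and in Psmg4 the lowest was WT replicate 3. Without WT replicate 2 the differences were 0.02 for Psmd9 and -0.01 for Psmg1, and without WT replicate 3 that of Psmg4 was 0.01. Psmd5, Psmd10, Psmg2 and Psmg3 had differences between -0.04 and 0.18.

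None of the genes of other caps passed limma. Psme1, a subunit of the interferon-inducible cap, was at 15.7, 10.1 and 11.3 TPM in KO libraries, against 8.31, 3.27 and 12.9 TPM in WT libraries (log2 difference 0.68, adjusted p = 0.336), and the difference was 0.21 without WT replicate 2 and 1.06 without WT replicate 3. Its partner in the same cap, Psme2, was at 46.5, 58.7 and 53.6 TPM in KO libraries, against 53.6, 54.7 and 56.8 TPM in WT libraries (-0.06, adjusted p = 0.811). Both groups overlapped for each of these neighbours on chromosome 14. Psme3, a nuclear cap, was at 53.2, 48.8 and 61.8 TPM in KO libraries, against 58.5, 73.7 and 71.3 TPM in WT libraries (-0.31, adjusted p = 0.236). Psme4, another nuclear cap, was at 137, 123 and 120.0 TPM in KO libraries, against 101, 94.96 and 123 TPM in WT libraries (0.26, adjusted p = 0.266). The groups of both genes overlapped through 1 library on each side. The inhibitor gene Psmf1 had a difference of 0.12.

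The remaining genes were rare. Psma8 ranged from 0.56 to 0.91 TPM in KO libraries and from 0.37 to 0.99 TPM in WT libraries, and Psmb11 from 0.07 to 0.32 TPM in KO and from 0.13 to 0.72 TPM in WT. Psmc3ip was at 4.48, 3.69 and 5.18 TPM in KO libraries, against 2.24, 0 and 6.11 TPM in WT libraries (log2 difference 0.93, adjusted p = 0.398). The difference was 0.17 without WT replicate 2, 1.59 without WT replicate 3 and 1.99 with a pseudocount of 0.1. Its groups overlapped, and it shares 385 exonic bases with Mlx on the opposite strand.

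Transcript length moved with the differences over the whole table. Over rows whose longest annotated transcript was 700 to 1000 bases, the median log2 difference was 0.15, and it was -0.10 above 4000 bases. The first of these bins held 6 proteasome genes: Psmb3 (766 bases), Psmb6 (798), Psmb2 (859) and Psmg3 (883) had differences above 0, and Psmb5 (899) and Psme2 (962) below 0. Spearman's correlation between length and difference was -0.11 across 12101 tested rows and -0.20 across the 46 proteasome genes, as a description of genes that share these libraries. With the length trend removed per library, Psmb3 still passed (0.45, adjusted p = 0.0387), Psmb6 differed by 0.11 and the difference between core and regulatory particle was 0.16 in place of 0.23.

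**Figure D5:**
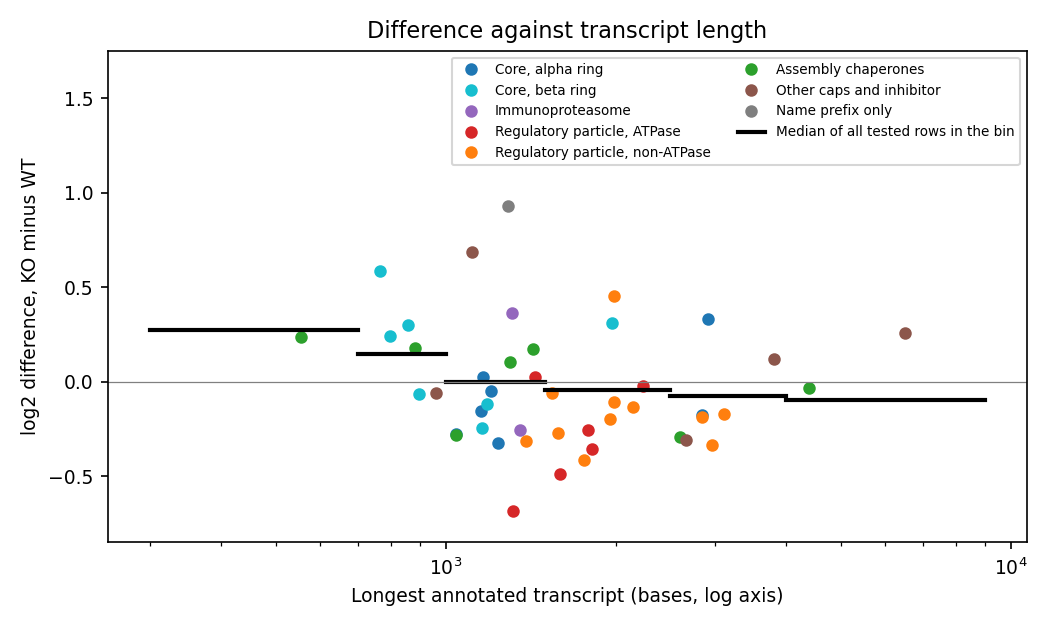
Log2 difference, KO minus WT, against the longest annotated transcript (bases, log axis) for the 46 tested genes, coloured by class, with black lines for the median of all tested rows in each length bin. The lines step from 0.28 in the shortest bin to -0.10 in the longest, and Psmb3 (0.58) lies above the line of its bin.

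Of 10 further subunits, assembly factors and bound enzymes, 0 passed limma, and the median was 0.03. Before adjustment, p was below 0.05 for 1 higher and 2 lower (30%, against 23.8% of all tested rows). Adrm1, a ubiquitin receptor of the regulatory particle named after its values were seen, was at 102, 96.6 and 101 TPM in KO libraries, against 73.7, 62.6 and 86.3 TPM in WT libraries, without overlap (log2 difference 0.44, adjusted p = 0.0974). Ube3c, a ubiquitin ligase bound to the proteasome and likewise named after its values were seen, was at 62.9, 60.3 and 65.4 TPM in KO libraries, against 79.9, 79.0 and 85.3 TPM in WT libraries, also without overlap (-0.37, adjusted p = 0.0900). Usp14, a deubiquitinase of the regulatory particle named in the same way, differed by -0.34 (adjusted p = 0.164). Pomp, which matures the core, was the highest of them, at 835, 1123 and 912 TPM in KO libraries, against 908, 757 and 723 TPM in WT libraries (log2 difference 0.26, adjusted p = 0.303). Shfm1, a small lid subunit, and Txnl1, a thioredoxin of the regulatory particle, differed by 0.07 and -0.02. The groups overlapped for Pomp, Shfm1 and Txnl1.

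Of 9 genes of the Nfe2l1 control system, 0 passed limma, and the median was -0.19. Before adjustment, p was below 0.05 for 1 higher and 3 lower (44.4%, against 23.8% of all tested rows). Differences were below 0 for 8 of the 9. The groups did not overlap for 5, with 1 higher and 4 lower (55.6%, against 28.9% of all tested rows). Nfe2l1 itself was at 308, 319 and 304 TPM in KO libraries, against 311, 364 and 301 TPM in WT libraries (-0.07, 95% interval -0.31 to 0.18). Vcp, the ATPase that extracts Nfe2l1 from the endoplasmic reticulum, was at 319, 244 and 311 TPM in KO libraries, against 327, 431 and 426 TPM in WT libraries (-0.44, adjusted p = 0.122). The Vcp groups did not overlap. Akirin2, which brings proteasomes into the nucleus, differed by -0.01. Ngly1, which removes the sugars of Nfe2l1 and was named after its values were seen, was at 48.2, 44.5 and 55.3 TPM in KO libraries, against 63.2, 85.5 and 85.2 TPM in WT libraries (-0.64, adjusted p = 0.0514), without overlap and just outside the threshold. Nfe2l2, a relative of Nfe2l1 named in the same way, was at 73.5, 72.8 and 71.9 TPM in KO libraries, against 57.7, 60.5 and 48.2 TPM in WT libraries, also without overlap (0.39, adjusted p = 0.106).

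Among 5 rows of ubiquitin genes and activating enzymes, 1 rose and 1 fell, and both are rows named Ubb. The higher row was at 3607, 3863 and 3677 TPM in KO libraries, against 2551, 2968 and 2443 TPM in WT libraries (log2 difference 0.49, adjusted p = 0.0479), and the other at 35.5, 75.1 and 46.7 TPM in KO libraries, against 1100.0, 1163 and 1058 TPM in WT libraries (-4.44, adjusted p = 5.35e-05). Summed over the 2 rows, Ubb was at 3642, 3938 and 3723 TPM in KO libraries, against 3651, 4131 and 3501 TPM in WT libraries. The groups overlapped, and the summed level differed by 0.01 (95% interval -0.25 to 0.27, adjusted p = 0.984), so the 2 calls are for rows and not for the gene's total. The table does not say how the rows differ. Uba1, the main activating enzyme, differed by 0.14. Of 6 carriers, Ubqln4 fell, at 18.8, 17.7 and 21.9 TPM in KO libraries, against 35.5, 41.1 and 34.2 TPM in WT libraries (log2 difference -0.89, adjusted p = 0.0159), and the other 5 did not pass. Sqstm1, which also links ubiquitin to autophagy, Ubqln1 and Rad23b differed by 0.09, -0.22 and -0.21.

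The immunoproteasome supplies peptides to class I molecules, so their genes were set beside it. Of 7 tested class I genes, 1 rose, 0 fell and 6 did not pass limma, with a median of -0.35. Before adjustment, p was below 0.05 for 1 higher and 1 lower (28.6%, against 23.8% of all tested rows). B2m, the shared light chain, was at 544, 664 and 400 TPM in KO libraries, against 328, 200 and 297 TPM in WT libraries (log2 difference 0.96, adjusted p = 0.0438), without overlap. The B2m call was not followed with libraries left out, and neither was that of Ubqln4. H2-D1, a heavy chain, averaged 64.6 ± 6.87 TPM in KO and 52.4 ± 15.1 TPM in WT (SD, n = 3 each; limma adjusted p = 0.360).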

How the data were processed

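Per the labels' protocols, RNA was extracted with the PicoPure kit, converted to amplified cDNA and sheared; Ovation kits served for the cDNA and adapter steps. Per the submitters' processing notes, the tools named are RSEM 1.2.7, Bowtie2 and cutadapt, with build mm10; the annotation was not given in the sources used here. A single TPM table was deposited by the authors, with 1 column per library. TPM scales each library to a fixed total, so abundant transcripts lower the others, and RSEM divides reads of similar copies by a model. Values were taken to log2(TPM + 1) and tested by limma 3.58.1 in R 4.3.3, with genotype alone, an intensity trend and a minimum mean of 1 TPM. Members and lists were chosen with earlier results of these data known. Named genes were the called members, the 3 largest differences per class, the immunoproteasome pairs, and called or highest genes of each list. Positions and lengths came from GENCODE vM21 (GRCm38, the assembly mm10 names) and promoters from RefSeq; 93.8% of tested names other than uc identifiers had a length. The genes now named Sem1, Ecpas and Ufd1 were analysed under the older names Shfm1, AI314180 and Ufd1l; Psme2b, Paaf1 and Uba6 are not analysed here, and some other genes of the lists are not reported here. Alternatives covered pseudocount, filter, scaling, trend, replicate block, sex term, left-out libraries and summed rows, and, chosen after seeing the data, a satellite glia covariate, a length correction and the sum of the Ubb rows. Figures were drawn with Python 3.11.15 and matplotlib 3.10.9.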

Additional observations from a re-analysis of the deposited data

How the results depend on the processing

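Over all rows, the 693 calls of limma became 378 without a filter, 225 without the intensity trend, 204 without replicate 3 of both groups and 178 with the satellite glia covariate, and ranged from 164 to 835 when 1 library was left out. Median-of-ratios rescaling gave 375 higher and 385 lower rows (49.3% higher), and the length correction 363 and 393 (48.0%), in place of 256 and 437 (36.9%). Among the proteasome genes, the 1 call, Psmb3, became 0 without the intensity trend (4 genes at an unadjusted p below 0.05), with the replicate block (9), without replicate 3 of both groups (10) and with the satellite glia covariate (7), and the count ranged from 0 to 4 when 1 library was left out. The cause was not tested. The labels do not pair the replicate numbers, although replicate 3 of both groups shares the sex-linked pattern: deviations of same-numbered libraries correlated at 0.05, 0.07 and 0.04, KO replicate 1 correlated best with WT replicate 3, and the replicate block gave 529 calls over all rows and an adjusted p of 0.0501 for Psmb3. The Psmb3 difference was between 0.45 and 0.66 and above 0 in all 18 alternatives, and passed in 9. The difference between core and regulatory particle was above 0 in each alternative and ranged from 0.16 to 0.33 when 1 library was left out. Depth is unknown, so the precision of rare genes such as Psmb8 and Psmb9 cannot be stated.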
